A study of Mus musculus with 6 samples.

Results

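Integrins are the receptors with which cells hold on to other cells and to the extracellular matrix. A group of 10 genes was picked by name, with earlier results of these data known, out of 46078 genes in the count tables. They were *Itgal*, *Itgam*, *Itgax*, *Itgad*, and *Itgb2*, which make the β2 integrins of leukocytes, *Itga4*, *Itgb7*, and *Itgae*, which serve lymphocyte homing and retention, and *Itgb1* and *Itgav*, which make receptors for matrix. Of these 10 genes, 9 had enough counts to be tested, and *Itgad* did not. RNA was sequenced from 3 infarcts and 3 samples of contralateral cortex, all of wild-type C57BL/6J mice at 7 weeks after stroke, with an age of 3 months in the sample records. All mice were male and had a permanent occlusion of the distal middle cerebral artery followed by hypoxia, so the contralateral cortex comes from the uninjured side of stroked brains and not from naive animals. Infarcts were cut out by eye. The records name no treatment for these samples and do not state which libraries share a mouse or whether every library came from a different one, so *p* values measure the spread between these samples.

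Each integrin is a pair of 1 α and 1 β chain, and most chains are stable at the cell surface only as part of a pair. The β2 chain, CD18, pairs with αL (LFA-1), αM (Mac-1 or CR3), αX (CD11c) and αD, and these pairs bind ICAMs, complement fragments and fibrinogen. The α4 chain pairs with β1 (VLA-4, which binds VCAM-1 and fibronectin) and with β7 (which binds MAdCAM-1), and αE, CD103, pairs with β7 and binds E-cadherin. In brain, αM is the classical surface marker of microglia, whereas αX is low on resting microglia and high on dendritic cells and on some activated phagocytes. The αV chain pairs with β1, β3, β5, β6, or β8, and αVβ8 on glia is known for activating latent TGF-β.

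*Itgal*, *Itgam*, *Itgax*, and *Itgad* lie on chromosome 7 (GRCm38). *Itgam* (ENSMUSG00000030786, 128062640 to 128118491), *Itgax* (ENSMUSG00000030789, 128129547 to 128150657) and *Itgad* (ENSMUSG00000070369, 128154376 to 128223816) are neighbors on the plus strand, with 11055 bases between *Itgam* and *Itgax* and 3718 bases between *Itgax* and *Itgad*. *Itgal* (ENSMUSG00000030830, 127296260 to 127335138) lies 727501 bases before *Itgam*. RefSeq promoter sequences on GRCm38.p6, from 250 bases before to 50 bases after the annotated start, were found for 6 of the 10 genes. The promoters of *Itgam* (chr7:128062390-128062689, plus strand) and *Itgax* (chr7:128129300-128129599, plus strand) are shown because these neighboring β2 partners rose by very different amounts, and those of *Itgb1* (chr8:128685404-128685703, plus strand) and *Itgav* (chr2:83724147-83724446, plus strand) because they stand for the matrix integrins that rose and that did not. Capitals mark GAGGAA, the core bound by the myeloid factor PU.1, and TGTGGT, the core bound by RUNX factors, on either strand.
Itgam: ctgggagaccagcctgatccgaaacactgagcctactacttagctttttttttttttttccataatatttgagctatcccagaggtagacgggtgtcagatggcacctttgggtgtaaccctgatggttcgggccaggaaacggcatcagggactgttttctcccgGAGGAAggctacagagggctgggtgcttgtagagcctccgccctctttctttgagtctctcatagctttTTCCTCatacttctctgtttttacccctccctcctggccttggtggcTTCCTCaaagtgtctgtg
Itgax: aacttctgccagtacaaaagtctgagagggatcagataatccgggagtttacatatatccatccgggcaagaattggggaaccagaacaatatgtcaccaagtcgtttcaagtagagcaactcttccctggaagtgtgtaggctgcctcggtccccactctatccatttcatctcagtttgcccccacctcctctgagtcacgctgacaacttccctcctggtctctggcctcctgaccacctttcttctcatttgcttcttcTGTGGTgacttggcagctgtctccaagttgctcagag
Itgb1: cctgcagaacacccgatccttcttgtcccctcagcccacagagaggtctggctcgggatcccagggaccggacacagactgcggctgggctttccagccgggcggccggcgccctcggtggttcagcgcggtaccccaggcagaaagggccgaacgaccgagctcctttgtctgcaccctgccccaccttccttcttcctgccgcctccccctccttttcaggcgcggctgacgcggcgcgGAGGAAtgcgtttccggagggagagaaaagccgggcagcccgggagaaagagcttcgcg
Itgav: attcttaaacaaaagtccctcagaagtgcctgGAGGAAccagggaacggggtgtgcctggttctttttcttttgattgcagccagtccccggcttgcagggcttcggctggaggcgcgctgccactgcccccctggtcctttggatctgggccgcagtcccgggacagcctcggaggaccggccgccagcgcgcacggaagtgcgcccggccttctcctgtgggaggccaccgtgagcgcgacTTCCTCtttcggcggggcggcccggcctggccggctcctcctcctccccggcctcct
GAGGAA occurs 3 times in the *Itgam* window, 0 times in that of *Itgax*, 1 time in that of *Itgb1* and 2 times in that of *Itgav*, and 28.3% of all 32851 RefSeq promoter windows hold it at least once. TGTGGT occurs 1 time in the *Itgax* window and 0 times in the other windows shown, compared with 16.8% of all windows. The windows also differ in CpG dinucleotides, with 6 in *Itgam* and 5 in *Itgax* against 27 in *Itgb1* and 24 in *Itgav*, where the median of all windows is 7. These matches describe the letters of the windows and say nothing of the factors.

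The comparison of infarct with contralateral cortex asks which integrins are expressed in the chronic lesion. Expression is given as CPM, the counts of a gene divided by the TMM-scaled library size, and a gene was called upregulated or downregulated when the edgeR quasi-likelihood test gave a Benjamini-Hochberg adjusted *p* under 0.05 and the fold change exceeded 2. The standard error (SE) is that of the log2 fold change. Of the 9 tested genes, 8 were upregulated in infarcts, compared with 25.7% of all tested genes, and *Itgav* was not called. In either direction, 46.6% of all tested genes were called. None of the 9 was downregulated by edgeR, DESeq2 or limma voom, 0 had a lower value in infarcts at an unadjusted *p* under 0.05 by any of these tools, and 20.9% of all tested genes were downregulated. The median log2 fold change was 3.58 over the 9 genes and 0.03 over all tested genes. The 3 infarct values all lay above the 3 contralateral values for 8 of the 9 genes, and regions did not overlap for 72.3% of all tested genes.

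**Figure D1:**
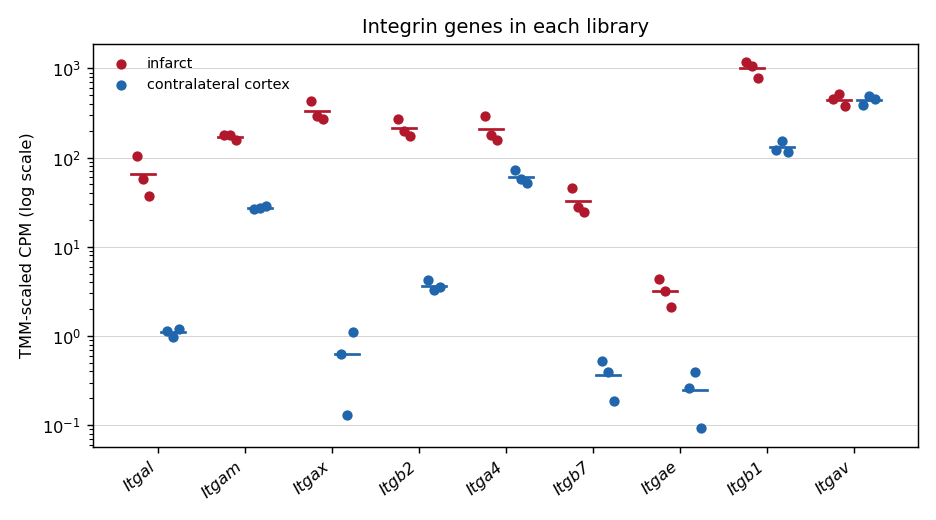
TMM-scaled CPM on a log axis for the 9 tested integrin genes, with 1 point per library (infarct red, contralateral cortex blue) and a bar at the mean of the 3 libraries. The regions are apart for every gene shown except *Itgav*, and the gap is widest for *Itgax*, from at most 1.11 CPM on the contralateral side to at least 274 CPM in infarcts. *Itgad*, with a library at 0, is not drawn.

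The β2 chain itself was low in contralateral cortex and abundant in infarcts. *Itgb2* (ENSMUSG00000000290, chromosome 10, 77530252 to 77565708) had 274, 198 and 177 CPM in infarcts 1, 2 and 3 and 4.22, 3.25 and 3.50 CPM in contralateral samples 1, 2 and 3. Every infarct thus stood far above every contralateral cortex, and the log2 fold change was 5.88 (SE 0.24, edgeR adjusted *p* = 1.64e-07). In this bulk tissue, more cells of a type and more RNA per cell cannot be told apart. The summed level of 6 genes shared by myeloid cells, all of them upregulated, ranged from 1097 to 1565 CPM in infarcts and from 123 to 169.5 CPM on the contralateral side. The part of cell numbers in the change of *Itgb2* was not tested.

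The 3 tested α partners of β2 rose by very different amounts. *Itgax*, which encodes CD11c, had 431, 295 and 274 CPM in infarcts and 0.626, 0.130 and 1.11 CPM on the contralateral side. The contralateral values rest on 12, 2 and 12 counts, against 5419, 4021 and 4019 counts in infarcts. Its log2 fold change of 9.14 (SE 0.49, edgeR adjusted *p* = 1.64e-06) was the largest of the 9 genes and ranked 61 by size among the 3999 upregulated genes. Leaving out contralateral cortex 2 gave 8.64, and leaving out contralateral cortex 3 gave 9.68.

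*Itgal*, which encodes the αL chain of LFA-1 found on nearly all leukocytes, had 104, 57.8 and 36.8 CPM in infarcts and 1.15, 0.975 and 1.20 CPM on the contralateral side. Infarct 1 held the highest value and infarct 3 the lowest, and all infarcts were above all contralateral cortices. The log2 fold change was 5.90 (SE 0.45, edgeR adjusted *p* = 8.49e-06). T cell marker genes were spread in the same order, with a summed level of 209, 82.7 and 53.6 CPM in infarcts 1, 2 and 3. They summed to 5.71 to 7.54 CPM on the contralateral side. The order was not particular to T cells. *Ptprc*, the gene of CD45, had 402, 251 and 192 CPM, and B cell, natural killer cell, plasma cell and macrophage markers followed it too. Neuronal, astrocyte and oligodendrocyte markers ran in the reverse order. Whether the spread of *Itgal* comes from any of these cells was not tested.

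*Itgam*, which encodes CD11b, was the β2 partner already present in contralateral cortex, at 26.5, 27.2 and 28.7 CPM. It reached 180.4, 177 and 159 CPM in infarcts, with little spread within either region. The log2 fold change of 2.65 (SE 0.14, edgeR adjusted *p* = 3.85e-07) was the smallest of the β2 family and the most precisely estimated of the 9 genes. The predicted same-strand gene *Gm49368* overlaps 68.7% of *Itgam* exon sequence, and how reads shared by overlapping genes were counted is not given in the sources used here. Of the homeostatic microglia genes, 3 of 7 were upregulated and 0 downregulated, with a summed level of 846 to 877 CPM in infarcts and 286 to 331 CPM on the contralateral side.

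*Itgad*, the αD chain, was barely counted. Infarcts 1, 2 and 3 held 2, 7 and 3 counts, and contralateral cortices held 1, 3 and 0 counts. Since 3 counts correspond to between 0.156 and 0.276 CPM in these libraries, no difference between regions was detectable at this depth. The regions overlapped. Of its exon bases, 7.32% lie under the same-strand gene *Gm17831* and 12.4% under exons of genes on the other strand.

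Because levels of different genes can be compared per length only, the 4 α partners of β2 were set against each other as CPM per kb of annotated exon. *Itgam* made up 94.3%, 96.1% and 93.3% of their sum in contralateral cortices 1, 2 and 3, whereas *Itgax* made up 2.33%, 0.481% and 3.76%. In infarcts 1, 2 and 3, *Itgax* took 63.4%, 58.1% and 60.5% and *Itgam* fell to 25.4%, 33.4% and 33.5%. The *Itgax* share was thus higher and the *Itgam* share lower in every infarct than in any contralateral cortex. Which of them leads in infarcts depends on the overlap with *Gm49368*. Had reads on bases shared with a gene of the same strand been left out by the counting, so that only unshared exon bases count as length, *Itgam* would make up 52.1% to 61.7% and *Itgax* 33.5% to 40.7% of the sum in infarcts, against 97.8% to 98.7% and at most 1.24% in contralateral samples. A length is the same in every library, so this choice could not remove the shift between regions and is no test of it. The share of *Itgal* was 8.49% ± 2.62 (SD, n = 3) in infarcts and 2.91% ± 0.248 in contralateral cortices, and that of *Itgad* was at most 0.768% in all 6 libraries. These shares compare genes within 1 library and do not depend on scaling between libraries. No test was made of the shares, since an exact permutation test of 3 against 3 libraries cannot give a *p* under 0.1.

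**Figure D2:**
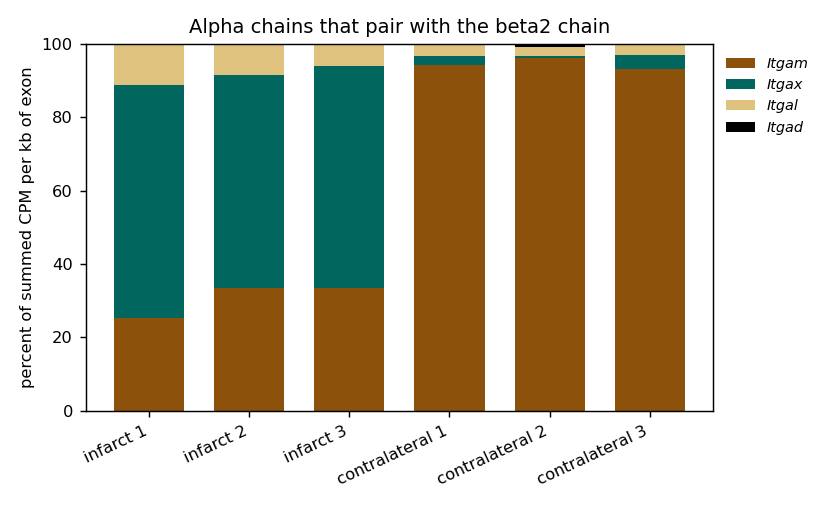
Percent of the summed CPM per kb of exon of *Itgam*, *Itgax*, *Itgal*, and *Itgad* in each of the 6 libraries, 1 stacked bar per library. *Itgam* fills 93.3% to 96.1% of each contralateral bar, and *Itgax* fills 58.1% to 63.4% of each infarct bar, or 33.5% to 40.7% when only unshared exon bases are taken as length.

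The β2 chain moved toward balance with its partners. The level of *Itgb2* per kb was 0.247, 0.189 and 0.188 of the sum of the 4 α chains in contralateral cortices and 0.635, 0.615 and 0.615 of that sum in infarcts. In infarcts *Itgax* and *Itgb2* had nearly the same level per kb, with ratios of 0.999, 0.945 and 0.984, compared with ratios between 0.0254 and 0.201 in contralateral cortices. The ratio of *Itgam* to *Itgb2* was 0.400, 0.544 and 0.545 in infarcts and 3.82, 5.08 and 4.97 in contralateral cortices, without overlap. These values carry the limit of the overlap with *Gm49368*. With only unshared exon bases as length, *Itgb2* was 0.354 to 0.408 of the sum in infarcts and 0.0609 to 0.0806 in contralateral cortices. *Itgam* was then 52.1% to 61.7% of the sum in infarcts, so which of *Itgam* and *Itgb2* is higher there depends on the length used.

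To see which integrins rose more or less than *Ptprc*, the genes were divided by it. *Ptprc* encodes CD45, the surface phosphatase of nucleated blood cells and microglia, and does not stand for all leukocyte RNA. It had 192 to 402 CPM in infarcts and 4.15 to 5.79 CPM on the contralateral side, a log2 fold change of 5.81. A gene that rose less than *Ptprc* thus has a lower ratio in infarcts. Ratios were computed for chosen gene pairs only, so no share over all genes is given. Per kb, the ratio of *Itgal* to *Ptprc* was 0.720, 0.643 and 0.533 in infarcts and 0.553, 0.550 and 0.805 in contralateral cortices. That of *Itgb2* was 4.09, 4.75 and 5.52 in infarcts and 4.38, 3.95 and 5.07 in contralateral cortices. For both genes the regions overlapped, so no change relative to *Ptprc* was visible beyond the spread between libraries.

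The other β2 partners differed from *Ptprc* in opposite directions. The ratio of *Itgax* to *Ptprc* was 4.08, 4.48 and 5.43 in infarcts and at most 1.02 in contralateral cortices. The ratio of *Itgam* to *Ptprc* was 1.63, 2.58 and 3.01 in infarcts and between 16.7 and 25.2 in contralateral cortices. *Itgb7* was higher relative to *Ptprc* in infarcts, at 0.743 to 0.850 against 0.294 to 0.596, and *Itgae*, *Itga4*, *Itgb1*, and *Itgav* were lower without overlap. The contralateral ratios of *Itgb7* and *Itgae* rest on at most 10 and 6 counts per library. Divided instead by *Csf1r*, the receptor gene of microglia and macrophages, *Itgam* was higher in infarcts without overlap, by 0.69 on the log2 scale. *Itgb2* and *Itgal* were also higher relative to *Csf1r*, by 3.91 and 3.82 on the log2 scale without overlap. So the course of *Itgam*, *Itgb2*, and *Itgal* depends on the reference gene, while *Itgax* was higher in infarcts against both, with ratios to *Csf1r* of 0.760 to 0.964 in infarcts and of at most 0.00957 in contralateral cortices.

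**Figure D3:**
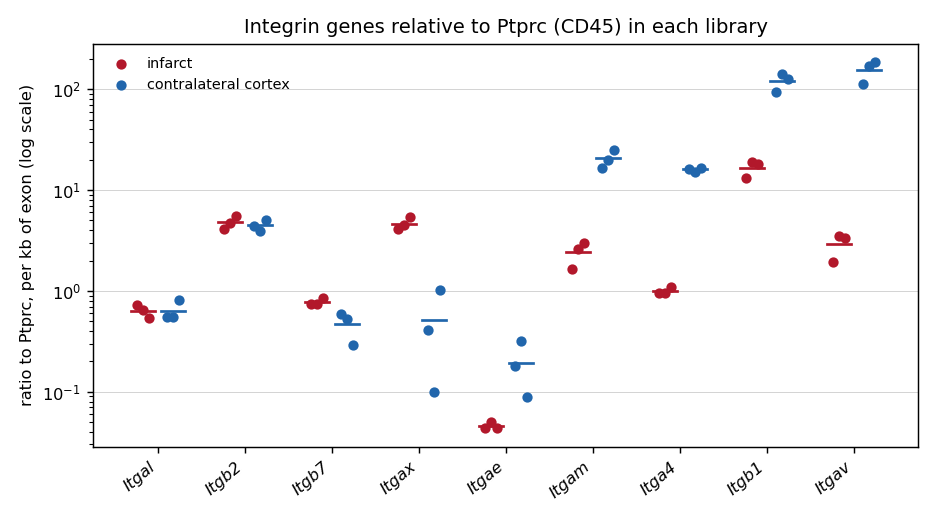
Ratio of each integrin gene to *Ptprc* (CD45) per kb of exon on a log axis, with 1 point per library and a bar at the mean of 3 libraries. Regions overlap for *Itgal* and *Itgb2*, infarcts are higher for *Itgb7* and *Itgax*, and infarcts are lower for *Itgae*, *Itgam*, *Itga4*, *Itgb1*, and *Itgav*.

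All 3 genes of the α4, αE and β7 chains were upregulated. *Itgb7* (ENSMUSG00000001281, chromosome 15, 102215995 to 102231944, minus strand) had 45.2, 28.1 and 24.7 CPM in infarcts and 0.521, 0.390 and 0.184 CPM on the contralateral side, from 10, 6 and 2 counts. The regions were far apart, and the log2 fold change of 6.36 (SE 0.38, edgeR adjusted *p* = 7.21e-07) was second to that of *Itgax* among the 9 genes.

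*Itga4* (ENSMUSG00000027009, chromosome 2, 79255426 to 79333123), by contrast, was already well expressed on the uninjured side. It had 293, 181 and 159 CPM in infarcts and 72.3, 57.4 and 52.5 CPM on the contralateral side. The regions did not overlap, although infarct 1 stood apart from the other infarcts, and the log2 fold change was 1.80 (SE 0.24, edgeR adjusted *p* = 1.64e-04). Exons of *Cerkl* on the other strand cover 8.04% of its exon bases.

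Since the 2 chains of α4β7 rose unequally, the ratio between them changed. Per kb, *Itga4* was 1.29, 1.27 and 1.28 times *Itgb7* in infarcts 1, 2 and 3. In contralateral cortices it was 27.5, 29.2 and 56.5 times *Itgb7*, from at most 10 *Itgb7* counts per library. The infarct ratios lay within 1.27 to 1.29 although both genes varied between infarcts. Per kb of coding sequence they were 5.03 to 5.08 in infarcts and 108 to 223 in contralateral samples, so the near-equal level in infarcts rests on the length used.

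*Itgae* (ENSMUSG00000005947, chromosome 11, 73090583 to 73147446), the gene of CD103 on tissue-resident T cells and some dendritic cells, was counted least among the tested genes. It had 4.37, 3.15 and 2.11 CPM in infarcts, from 55, 43 and 31 counts, and 0.261, 0.390 and 0.0921 CPM on the contralateral side, from 5, 6 and 1 counts. All infarcts lay above all contralateral cortices, and the log2 fold change was 3.58 (SE 0.52, edgeR adjusted *p* = 2.12e-04). In infarcts its level per kb was 0.0516 to 0.0677 of that of *Itgb7*, so β7 RNA far exceeded αE RNA.

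Infarct 1 held the highest value of each of the 8 upregulated genes, and markers of lymphocytes were also highest there. So were other sums, such as those of pan-myeloid markers (1565, 1099 and 1097 CPM in infarcts 1, 2 and 3) and endothelial markers (367, 280 and 239 CPM). Fibroblast markers were highest in infarct 2, and neuronal, astrocyte, oligodendrocyte, mast cell and platelet markers in infarct 3. How many of all upregulated genes were highest in infarct 1 was not counted. All 9 tested T cell markers were upregulated, and *Cd3d*, *Cd2*, and *Cd8a* had 0 counts in every contralateral library. The 5 B cell markers summed to 295, 140 and 117 CPM in infarcts 1, 2 and 3, and to at most 0.645 CPM on the contralateral side. The 5 natural killer cell markers summed to 39.0, 24.3 and 14.3 CPM in infarcts and to at most 0.104 CPM on the contralateral side. Of 7 conventional dendritic cell markers, 5 were upregulated and 0 downregulated, with sums of 33.1 to 53.3 CPM in infarcts and 24.2 to 27.0 CPM on the contralateral side. The uncalled markers, *Zbtb46* and *Flt3*, had log2 fold changes of -0.39 and -0.54 and made up most of the contralateral sum. The part of any of these cell types in the differences between infarcts or between regions was not tested.

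Among the matrix integrins, *Itgb1* rose and *Itgav* did not. *Itgb1* (ENSMUSG00000025809, chromosome 8, 128685654 to 128733200), the β chain shared by most matrix receptors, had 1172, 1062 and 777 CPM in infarcts and 120.4, 154.5 and 117 CPM on the contralateral side. The lowest infarct thus stood well above the highest contralateral cortex, and the log2 fold change was 2.94 (SE 0.21, edgeR adjusted *p* = 2.37e-06). Fibroblast markers, all 5 of them upregulated, summed to 5659 to 7431 CPM in infarcts and 138 to 172 CPM on the contralateral side, and their part in the rise of *Itgb1* was not tested.

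*Itgav* (ENSMUSG00000027087, chromosome 2, 83724397 to 83806916) had 452, 511 and 382 CPM in infarcts and 386, 494 and 451 CPM on the contralateral side. The contralateral values lay within the range of the infarcts, and the log2 fold change was 0.01 (standard error 0.17, 95% interval -0.46 to 0.49, adjusted *p* = 0.945, edgeR). When single libraries were left out, the log2 fold change ranged from -0.087 to 0.13, and with library totals in place of TMM it was 0.22.

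The β partners of αV did not move alike. Of these 5 genes, *Itgb1*, *Itgb3*, and *Itgb5* were upregulated, *Itgb8* was not called and *Itgb6* was not tested. *Itgb5*, whose product forms a receptor for vitronectin and for the bridging protein MFG-E8, rose from 21.1 ± 3.16 CPM to 196 ± 46.9 CPM (SD, n = 3), a log2 fold change of 3.21. *Itgb3*, the β chain of platelets, osteoclasts and angiogenic endothelium, rose from 5.85 ± 1.18 CPM to 28.6 ± 5.67 CPM, a log2 fold change of 2.29. *Itgb8* had 322 ± 28.9 CPM in infarcts and 366 ± 11.5 CPM on the contralateral side and was not called (log2 fold change -0.19, 95% interval -0.58 to 0.21, adjusted *p* = 0.282, edgeR), and its sign turned to 0.02 with library totals. Of *Itgb6*, the epithelial β chain, 1 count was found over all 6 libraries. Per kb, *Itgb5* was 1.66, 0.939 and 1.43 times *Itgav* in infarcts and 0.149, 0.120 and 0.166 times *Itgav* in contralateral cortices. Per kb of coding sequence these ratios were 0.694, 0.392 and 0.596 in infarcts and at most 0.0695 in contralateral samples. Which gene is higher in infarcts thus depends on the length used. A length is the same in every library, so the fold difference between regions cannot depend on it.

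The order of levels per kb of exon differed between regions. In infarcts *Itgb1* was highest at 246 ± 50.1 CPM per kb, above *Itgb2* at 70.9 ± 16.7 and *Itgax* at 69.4 ± 17.8, whose ranges overlapped. *Itgav* at 41.7 ± 6.00 and *Itgam* at 34.3 ± 2.34 followed with overlapping ranges, then *Itga4* at 15.1 ± 5.15, *Itgb7* at 11.8 ± 3.97 and *Itgal* at 10.1 ± 5.23, neighbors that again overlapped. *Itgae* at 0.701 ± 0.247 and *Itgad* at 0.0648 ± 0.0427 CPM per kb were lowest. In contralateral cortices *Itgav* at 41.3 ± 5.06 and *Itgb1* at 32.0 ± 5.09 led with overlapping ranges, and *Itgam* at 5.46 ± 0.216, *Itga4* at 4.34 ± 0.736 and *Itgb2* at 1.20 ± 0.166 CPM per kb followed without overlap. *Itgal*, *Itgb7*, *Itgax*, *Itgae*, and *Itgad* all averaged at most 0.168 CPM per kb, and each overlapped its neighbor in that order. The place of *Itgam* carries the limit of its overlap with *Gm49368*. The places of *Itga4* and *Itgav* rest on long untranslated exons, since 3096 of 13978 exon bases of *Itga4* and 3132 of 10744 of *Itgav* are coding. Divided by coding length, *Itgav* ranked 2 and *Itga4* ranked 5 in infarcts, and *Itga4* ranked 3 in contralateral cortices.

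The remaining 16 mouse integrin subunit genes give the context of these changes. Of the 15 that were tested, 11 were upregulated, compared with 25.7% of all tested genes. The other 4, *Itga2b*, *Itga3*, *Itga7*, and *Itgb8*, were not called. None of the 15 was downregulated by edgeR, DESeq2 or limma voom, compared with 20.9% of all tested genes by edgeR. At an unadjusted *p* under 0.05, 0 were lower by any of these tools. The median log2 fold change was 2.18. *Itga5*, whose product pairs with β1 as the classical fibronectin receptor, had the largest log2 fold change at 4.24 (SE 0.19, edgeR adjusted *p* = 1.84e-07), rising from 2.89 ± 0.353 CPM to 55.2 ± 4.49 CPM. The collagen receptor chains *Itga2* and *Itga11* followed at 4.17 and 3.38. *Itga2* rests on 9 contralateral counts, and its value was 3.45 after leaving out contralateral cortex 1 and 5.59 after leaving out contralateral cortex 2. The smallest values were those of *Itgb8*, of *Itga7* at 0.45 and of *Itga3* at 0.53, the latter 2 being laminin receptor chains. By ligand class, a grouping made after the values were seen, 4 of 4 collagen receptor α chains, 1 of 3 laminin receptor α chains and 2 of 4 α chains that bind RGD sites, αV included, were upregulated. *Itga2b*, the α chain of the platelet fibrinogen receptor, had 1.15 ± 0.107 CPM in infarcts and 0.492 ± 0.252 CPM on the contralateral side (adjusted *p* = 0.0557, edgeR). Of 5 platelet markers 2 were tested and *Pf4* was upregulated (log2 fold change 2.18, edgeR adjusted *p* = 0.00427), and they summed to 3.50 to 4.22 CPM in infarcts and 0.975 to 1.67 CPM on the contralateral side. Their part in the level of *Itga2b* was not tested.

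**Figure D4:**
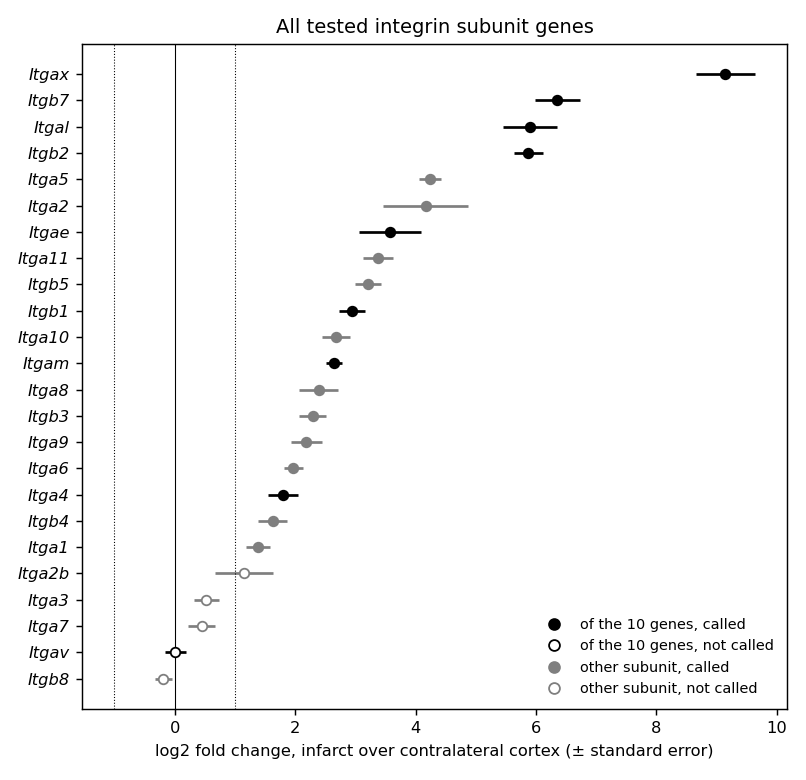
Log2 fold change of infarct over contralateral cortex with its standard error for the 24 integrin subunit genes tested, black for the 10 genes described here and gray for the other subunits, filled where called. *Itgax*, *Itgb7*, *Itgal*, and *Itgb2* lie above every other subunit, and *Itgav* and *Itgb8* lie at the foot of the plot near 0. Dotted lines mark a fold change of 2.

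Ligands of the integrins were also measured in the same libraries. Of 30 ligand genes on the list, 25 were tested and 20 were upregulated, compared with 25.7% of all tested genes. *Icam5* and *Thy1* were downregulated, compared with 20.9% of all tested genes, and 3 were not called. The median log2 fold change of the 25 genes was 2.38. Among β2 ligands, *Icam1*, the inducible ligand of LFA-1 and Mac-1, had 104, 83.0 and 57.0 CPM in infarcts and 1.69 to 3.69 CPM on the contralateral side, a log2 fold change of 4.97. *C3*, whose cleavage product iC3b is bound by αMβ2 and αXβ2, had the largest log2 fold change of the ligands, 9.93, against contralateral counts of 5, 4 and 35. That value was 9.33 after leaving out contralateral cortex 1 and 11.9 after leaving out contralateral cortex 3. *F11r*, the gene of the junctional molecule JAM-A, rose by 1.98 on the log2 scale. *Icam5*, which neurons of the telencephalon express and which shares 30.8% of its exon bases with genes on the other strand, had 1.43, 4.10 and 13.2 CPM in infarcts and 22.9 to 30.0 CPM on the contralateral side, and its log2 fold change of -2.02 (adjusted *p* = 0.0341, edgeR) was no longer called without infarct 2 or without any 1 contralateral cortex (adjusted *p* of 0.0642 to 0.107). Leaving out infarct 3 gave -3.17. *Thy1*, which neurons also express, fell by 1.84 on the log2 scale. The 5 neuronal markers were all downregulated, with sums of 428 to 1134 CPM in infarcts and 6675 to 7742 CPM on the contralateral side, and their part in these decreases was not tested. The fibrinogen genes *Fga*, *Fgb*, and *Fgg* were at 0 in every library except for 10 counts of *Fgb* in infarct 2 and 1 count of *Fgg* in contralateral cortex 1.

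Of the ligands of α4 and β7 integrins, *Vcam1*, the endothelial ligand of α4β1, had 356, 184 and 218 CPM in infarcts and 47.2, 47.7 and 52.9 CPM on the contralateral side. Its log2 fold change was 2.36 (SE 0.24, edgeR adjusted *p* = 2.54e-05). *Cdh1*, the gene of E-cadherin and thus of the ligand of αEβ7, rose from 3.61 ± 1.27 CPM to 32.3 ± 7.84 CPM, a log2 fold change of 3.18. *Jam2* was not called, at a log2 fold change of 0.26. *Madcam1*, the gut ligand of α4β7, was counted 4 times in infarct 1, 1 time in contralateral cortex 2 and 0 times elsewhere, so no difference was detectable.

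Of 15 matrix ligands, 14 were upregulated, compared with 25.7% of all tested genes. *Edil3*, a secreted ligand of αV integrins, was not called at a log2 fold change of -0.91. No matrix ligand was called downregulated by edgeR, DESeq2 or limma voom, and *Edil3* was lower at an unadjusted *p* under 0.05 by each of them. *Spp1*, which encodes osteopontin, a ligand of αV, α4 and α9 integrins, and *Col1a1* had the largest log2 fold changes, 7.22 and 6.73, ahead of *Tgfb1* at 4.55. *Fn1*, the gene of fibronectin, had 1116, 932 and 865 CPM in infarcts and 61.5, 65.6 and 88.8 CPM on the contralateral side, with a log2 fold change of 3.76. *Ltbp1* rose by 1.84, and *Vtn*, the gene of vitronectin, had the smallest called log2 fold change, 1.01, which dropped to between 0.83 and 0.92 and lost its call without infarct 1, contralateral cortex 1 or contralateral cortex 2. *Spp1* shares 18.8% of its exon bases with another gene on the same strand.

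Inside the cell, talins and kindlins bind the β tails and switch integrins on. Their forms differ in where they are expressed, and they did not move alike. *Fermt3*, the kindlin of blood cells, had 38.1, 29.8 and 27.9 CPM in infarcts and 1.67, 1.23 and 1.93 CPM on the contralateral side, a log2 fold change of 4.31 (SE 0.24, edgeR adjusted *p* = 5.09e-07). *Fermt2*, the kindlin of most solid tissues, had 62.5 to 66.4 CPM in infarcts and 68.3 to 71.1 CPM on the contralateral side and was not called (log2 fold change -0.13, adjusted *p* = 0.399, edgeR), and its sign turned to 0.08 with library totals. *Fermt1*, the epithelial kindlin, had 1 count in infarct 2, 0 in the other infarcts, and 13, 15 and 5 counts on the contralateral side and did not pass the filter. *Tln1*, the widespread talin, had 707, 647 and 538 CPM in infarcts and 76.5, 62.5 and 76.8 CPM on the contralateral side, a log2 fold change of 3.13. *Tln2*, the talin enriched in brain and muscle, had 156 ± 11.1 CPM on the contralateral side and 47.2 ± 14.6 CPM in infarcts, and fell by 1.72 on the log2 scale.

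Over the whole list of 37 activation and adaptor genes, 35 were tested and 23 were upregulated, compared with 25.7% of all tested genes. *Tln2*, *Ptk2*, and *Ptk2b* were downregulated, compared with 20.9% of all tested genes, and 9 were not called. The median log2 fold change of the 35 genes was 2.05. The largest values were those of *Fgr*, *Cytip*, and *Syk*. *Fgr*, a Src-family kinase of myeloid cells that acts downstream of β2 integrins, had 723, 668 and 581 counts in infarcts against 0, 0 and 1 counts on the contralateral side, and was at least 233-fold higher if each contralateral library held 3 counts. *Cytip*, a leukocyte protein that restrains LFA-1 adhesion, had a log2 fold change of 7.18, and *Syk*, a kinase that β2 integrins signal through, one of 5.28. *Ptk2*, the gene of focal adhesion kinase, and its relative *Ptk2b*, which is strong in forebrain neurons, fell by 1.24 and 1.36 on the log2 scale. *Ptk2b* was not called when tested against a fold change of 2. *Ilk*, the integrin-linked kinase, had 1 count over all 6 libraries, and exons of genes on the other strand cover 89.7% of its exon bases, so its expression could not be judged from these counts.

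Of 12 membrane partners of integrins, 9 were upregulated, compared with 25.7% of all tested genes, and 3 were not called. *Plaur*, the urokinase receptor that binds αM, *Cd53*, a leukocyte tetraspanin, and *Fcer1g*, an ITAM adaptor, had the largest log2 fold changes, 5.42, 4.90 and 4.85. *Cd47*, the widely expressed integrin-associated protein, had 328 ± 29.2 CPM in infarcts and 330 ± 49.2 CPM on the contralateral side (log2 fold change -0.01, 95% interval -0.46 to 0.44, adjusted *p* = 0.964, edgeR), with a sign that turned to 0.19 with library totals. *Slc3a2* and *Cd81* were not called either, at log2 fold changes of 0.59 and 0.99, the latter just under the threshold. No partner was called downregulated by edgeR, DESeq2 or limma voom, and 0 were lower at an unadjusted *p* under 0.05 by any of them.

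**Figure D5:**
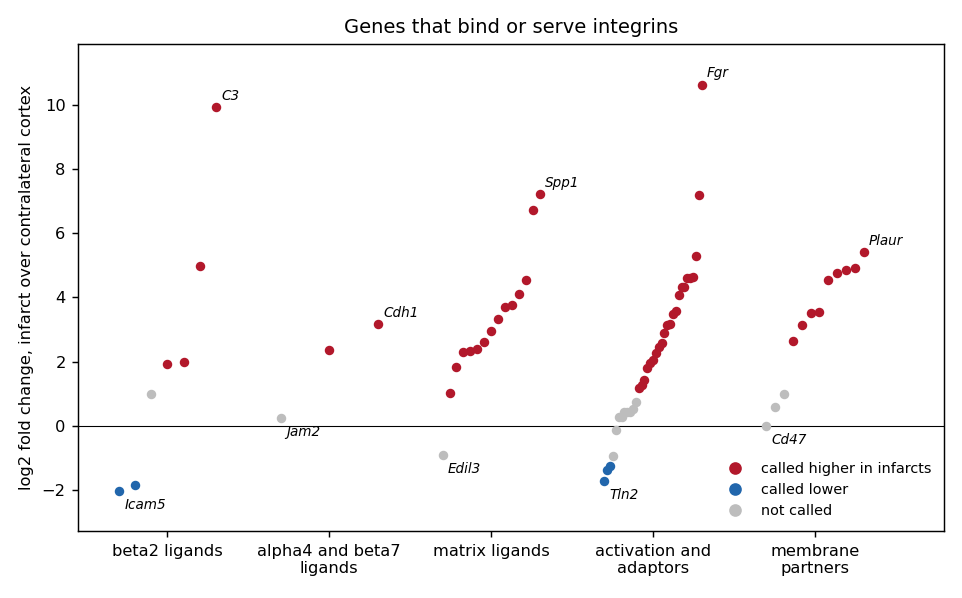
Log2 fold change of infarct over contralateral cortex for the tested genes of 5 lists, 1 point per gene, ordered by size within each list, with the highest and lowest gene of each list named. The fitted value of *Fgr* depends on the prior count. Red points were called upregulated, blue points downregulated, and gray points were not called. Ligands of α4 and β7, matrix ligands and membrane partners hold no blue point, and the β2 ligands run from *Icam5* to *C3*.

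Markers of other phagocytes and of further cell types of the tissue were also examined. Of all tested genes, 25.7% were upregulated and 20.9% were downregulated. Monocyte-derived macrophage genes were upregulated in 7 of 8 cases, *Cd163* was not called at a log2 fold change of 0.46, and their summed level, mostly that of *Lyz2* (4657 to 7839 CPM in infarcts), was 5050 to 8563 CPM in infarcts and 40.3 to 51.5 CPM on the contralateral side. Of 7 neutrophil markers, 3 were tested and upregulated, but *Ly6g* had 0, 2 and 0 counts in infarcts and *Retnlg*, *Ly6g*, and *Mpo* had 0 counts in every contralateral library. The sum of these 7 genes, mostly *Csf3r*, was 53.8 to 66.4 CPM in infarcts and 4.74 to 5.99 CPM on the contralateral side. Of 5 plasma cell markers, 4 were tested and upregulated, and they summed to 420 to 2395 CPM in infarcts and 95.5 to 114 CPM on the contralateral side. Most of the contralateral sum was *Xbp1*, at 92.6 to 108 CPM and with a log2 fold change of 1.10. *Jchain* had 1999, 722 and 161 CPM in infarcts 1, 2 and 3. Of 5 mast cell markers, 2 were tested and 1, *Cpa3*, was upregulated, at 0.875 to 2.86 CPM in infarcts. The other, *Kit*, was not called at a log2 fold change of -0.45. The 5 markers summed to 34.8 to 68.7 CPM in infarcts and 62.1 to 70.6 CPM on the contralateral side, with overlap. Among 5 markers each, 2 were upregulated for astrocytes, 2 for oligodendrocytes, 3 for endothelium and 3 for pericytes and smooth muscle, and none of these was downregulated. Oligodendrocyte markers summed to 3890.0 to 6350.2 CPM in infarcts and 2015 to 2422 CPM on the contralateral side, and astrocyte markers to 2548 to 3393 and 1060.0 to 1229.8 CPM. The astrocyte list was split, and *Gfap* and *Aqp4* made up most of its sum in infarcts. Its uncalled genes *Aldh1l1*, *Slc1a3*, and *Gja1* had log2 fold changes of -0.49, -0.37 and 0.59. Pericyte and smooth muscle markers summed to 481 to 682 CPM in infarcts and 214 to 263 CPM on the contralateral side. Endothelial markers summed to 239 to 367 CPM in infarcts and 114 to 121 CPM on the contralateral side.

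Counts on genes totaled between 12146959 and 13427057 in infarcts and between 11943570 and 19933962 in contralateral cortices. The mitochondrial share of counts lay between 2.71% and 3.55% in the infarct libraries, below the 5.50% to 6.66% of the contralateral ones. Across genes, which are not independent replicates, Pearson correlations of log2 CPM were at least 0.957 within a region and at most 0.784 between regions. Infarct 3 was the infarct closest to contralateral cortex, with the highest summed neuronal markers of the 3 infarcts and correlations of 0.773 to 0.784 with contralateral libraries. No library held the same counts as another.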

How the data were processed

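The deposited files hold raw counts per Ensembl gene for 3 infarct and 3 contralateral libraries. Per the methods and the submitters' processing notes, the authors prepared stranded mRNA libraries, demultiplexed the reads with bcl2fastq 2.19, trimmed them with Trimmomatic 0.32, aligned them to GRCm38 with STAR 2.5.2b and counted them with htseq-count. The annotation, strand option and version used for htseq-count are not given in the sources used here, so reads from overlapping genes on opposite strands may not be told apart. The 5 entries per file that name no gene held 26.6% to 34.3% of tallied reads and were left out. Identifiers were matched to GENCODE M21 (45229 found, 849 not). Counts were analyzed with edgeR 4.0.16 in R 4.3.3 (filterByExpr, TMM, robust quasi-likelihood F test, region as its only term, 15554 genes tested). The standard error is the log2 fold change divided by the square root of F, and 95% intervals use the t distribution with 4 degrees of freedom. The authors used DESeq2, run here (1.42.0) as an alternative, as was limma 3.58.1. Tables and plots were made with Python 3.11.15, pandas 2.3.3 and matplotlib 3.10.9. Lengths are the merged exon bases of a gene. In simulated data with 15554 genes, 180 of 200 genes changed 4-fold and 12 unchanged genes were called. Only those 200 genes were changed there, whereas 46.6% of tested genes were called in the real data. The simulation therefore does not cover a change of that extent. The 10 genes and all lists were chosen with earlier results of these data known. Named genes are the 10 genes, the 3 largest and 3 smallest log2 fold changes of each list, and main ligands, talins and kindlins. *Itgb3*, *Itgb5*, *Itgb6*, *Itga2b*, *Ilk*, and the fibrinogen genes fall outside that rule and were picked with their values in view. *Csf1r* and *Ptprc* are from the myeloid list. Counting intervals and floors cover counting error only.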

Additional observations from a re-analysis of the deposited data

How the results depend on the processing

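The calls of the 9 tested integrin genes did not change under any of the 16 alternatives that could test them, which were DESeq2, limma voom, RLE size factors, library totals, 2 other filters, 2 other fold thresholds, thinned counts, the replicate block and 6 fits without 1 library. A minimum of 10 counts in every library removed *Itgax*, *Itgb7*, and *Itgae*, so 5 genes were called upregulated in place of 8. The log2 fold change of *Itgav* turned negative, uncalled, in 2 fits that left out a library (range -0.087 to 0.13). With library totals the median over all genes moved by 0.20 on the log2 scale. Whether samples with the same replicate number share a mouse could not be decided, since deviations from a mean of 3 libraries need not carry a shared mouse. Correlations of same-numbered deviations were -0.19, 0.10 and 0.0011, no infarct correlated best with its own number, and the replicate block called the same 8 integrin genes upregulated and 3945 and 3222 genes in all, against 3999 and 3256 without it. Downregulated ligands dropped from 2 to 1 with no filter and with glmTreat against a fold change of 2, and ranged from 1 to 2 with each library left out, as *Icam5* lost its call. Without contralateral cortex 1, *Edil3* was called in its place, at -1.04. Among single genes, the sign of *Cd47* turned to 0.19 with library totals, 0.0068 with no filter and 0.021 with at least 10 counts per library, and ranged from -0.082 to 0.11 with each library left out, that of *Itgb8* to 0.019 and that of *Fermt2* to 0.076 with library totals. By coding length, the share of *Itgal* among β2 partners in contralateral cortices was 3.60% in place of 2.91%. With only exon bases under no other gene of the same strand as length, an alternative also chosen after seeing the data, the shares in infarcts were 36.4% for *Itgax*, 58.4% for *Itgam* and 5.14% for *Itgal*, which turns the order of *Itgax* and *Itgam* there, and those in contralateral cortices were 98.2% for *Itgam* and 0.948% for *Itgal*. By coding length, an alternative chosen after seeing the data, the places in infarcts were 2 for *Itgav*, 4 for *Itgb2*, 5 for *Itga4*, 6 for *Itgam*, 7 for *Itgal* and 8 for *Itgb7*, and in contralateral cortices 3 for *Itga4*, 4 for *Itgam*, 7 for *Itgax* and 8 for *Itgb7*. Depth limits *Itgad*, *Itgae*, and the contralateral values of *Itgax* and *Itgb7*. No cause of these shifts was tested.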
